A study of Mus musculus with 5 samples.

Results

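The stretch described here is 400 kb of mouse chromosome 17, from 70.1 to 70.5 Mb as numbered in the array files. Its members are the 78 genomic windows of 5 kb with at least 8 array probes in that interval, of 15383 such windows on the array. The interval holds 2354 of the 387986 probes on the chromosome. The interval was picked because earlier work on the same data had shown windows in it with lower signal in one cell line than in the other, so that contrast is described below without a test. At the lower edge, the difference between the lines (MEFB polyA minus MEFF polyA, explained next) was -0.07 in the first window inside and 0.03 in the last window outside. At the upper edge it was -0.33 in the last window inside and -0.37 in the first window outside.

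The study mapped transcription along chromosome 17 in 2 lines of mouse embryo fibroblasts that had become immortal spontaneously in culture, MEFF and MEFB (named MEFB1 in the treatment notes), both from 12.5 dpc embryos of the FVBN strain. Both lines carry the Thp deletion on one copy of the chromosome, MEFF with the genotype Thp/+ and MEFB with +/Thp, so neither is a line without a deletion. Apart from these reciprocal deletions, on the paternal copy in one line and the maternal copy in the other, the labels give the chromosome as the same in both. The deletion lies between the genes T and Sod2, takes at least 4.6 Mb including the 400 kb imprinted Igf2r cluster and, by the positions the labels give, lies outside the stretch as placed. MEFF gave 2 arrays of total RNA and 2 of polyA RNA, MEFB gave 1 array of polyA RNA, and no treatment is named. Each group is 1 line, so line and genotype cannot be told apart, and the labels do not say that arrays of a group came from separate cultures. Any spread between them may therefore be technical. The probes carry no fibroblast markers by name, so the cell type was not checked.

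On a tiling array, short probes are laid along a chromosome without regard to genes, and labelled cDNA binds where RNA was made. Spliced messenger RNA lights up exons, while RNA before splicing and other long transcripts also light up the sequence between them, so the shape of the signal along a gene is itself informative. Each array here set double-stranded cDNA, in Cy3, against sonicated genomic DNA of the same line, called the input, in Cy5. A level below is log2(cDNA/input) with the median of the array set to 0, so 0 is the level of a typical probe and not the absence of RNA. A difference is one level minus another on that log2 scale. The strand of origin is lost in such cDNA, and sense and antisense RNA are pooled. In cultures of many cells, less RNA in each cell and fewer cells with the RNA cannot be told apart.

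The sources used here do not name the genome build behind the probe positions. The probes were therefore placed on NCBIM37 by the genome sequence, with a small offset from the input channel and without any cDNA value. The placed positions lay 1.915 to 1.916 Mb above the file positions, which puts the stretch at chr17:72016028-72414973 in NCBIM37. Gene names below are candidates that rest on this placing. Read upwards along the chromosome, the stretch held all of Fam179a (chr17:72022601-72079009, forward strand), BC027072 (chr17:72092897-72102225, reverse strand), Clip4 (chr17:72119042-72207691, forward strand) and the 3′ part of Alk (chr17:72218782-72953049, reverse strand). A short noncoding transcript, Gm15641 (chr17:72066189-72067157), lies on the reverse strand inside Fam179a. The neighbour below the stretch was Wdr43 and the one above, beyond Alk, was Ypel5.

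Fam179a, now called Togaram2, encodes a protein with TOG domains, a fold that binds tubulin. BC027072, now Pcare, encodes a protein of the photoreceptor cilium. Clip4 belongs to the CLIP family, whose CAP-Gly domains bind microtubule ends. Alk encodes the anaplastic lymphoma kinase, a receptor tyrosine kinase of the developing nervous system that is known from gene fusions in lymphoma and lung cancer. Wdr43 is a nucleolar protein of ribosome biogenesis and is made in most cells.

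Clip4 had the highest exon levels of the stretch and its first exon did not share them, so its listed starts are shown first. RefSeq lists 3 starts for the gene. The 250 bases before each are printed 5′ to 3′ on the forward strand from GRCm38.p6, a build other than NCBIM37, with each CG in capitals. They lie at chr17:71769441-71769690, chr17:71781049-71781298 and chr17:71781697-71781946 of that build.
Clip4 start 1: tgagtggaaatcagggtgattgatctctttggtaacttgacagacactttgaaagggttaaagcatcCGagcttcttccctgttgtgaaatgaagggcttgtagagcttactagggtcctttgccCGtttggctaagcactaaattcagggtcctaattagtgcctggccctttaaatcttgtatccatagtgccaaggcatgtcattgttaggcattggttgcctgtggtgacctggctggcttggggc
Clip4 start 2: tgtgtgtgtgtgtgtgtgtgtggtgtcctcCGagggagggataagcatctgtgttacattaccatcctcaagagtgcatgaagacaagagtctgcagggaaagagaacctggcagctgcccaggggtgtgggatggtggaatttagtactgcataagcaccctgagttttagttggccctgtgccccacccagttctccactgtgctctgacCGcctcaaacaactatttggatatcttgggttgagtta
Clip4 start 3: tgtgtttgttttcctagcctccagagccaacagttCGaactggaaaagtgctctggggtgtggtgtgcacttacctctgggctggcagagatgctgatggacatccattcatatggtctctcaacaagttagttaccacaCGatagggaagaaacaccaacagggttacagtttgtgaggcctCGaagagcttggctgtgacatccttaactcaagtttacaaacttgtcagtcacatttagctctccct
The motif CG, which reads the same on both strands, occurred 2, 2 and 3 times. The median over 32851 RefSeq promoters of the same length was 6, and 29.0% of them had at most 2 and 37.8% at most 3. Each of the 3 counts was below that median. No start of Togaram2 was matched.

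Over the whole stretch the MEFB array read low. The mean level was -0.13 on both total arrays and -0.07 and -0.12 on both polyA arrays of MEFF, against -0.29 for MEFB. In 53 of the 78 windows (67.9%, where 27.4% of all windows of the array did so) MEFB lay below each of the 4 MEFF arrays, and in 11 (14.1%, against 30.9%) it lay above each of them. The median difference between MEFB and MEFF polyA was -0.21 in the stretch and 0.01 over all windows. The interval was chosen on this contrast, so these counts describe it and support nothing. In the 400 kb below the stretch, 35 of 71 windows were above each MEFF array in MEFB and 10 below, and in the 400 kb above it 34 of 76 were below and 7 above.

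The windows fell into 5 pieces: a run of 7 windows from 20 to 55 kb past the start of the stretch inside Fam179a, a run of 10 windows from 330 to 380 kb inside Alk, and what lies before, between and after them. In the 4 windows before the Fam179a run the difference was -0.22, in the 53 windows between the runs -0.07 and in the 4 windows after the Alk run -0.24. In the cDNA channel alone these differences were -0.01, 0.02 and -0.17, so that between the runs changed sign, and with normexp correction the last was -0.47. In both runs every window in MEFB lay below each MEFF array. The same held in all 4 windows before the Fam179a run and all 4 after the Alk run, so it was not particular to the runs. The windows between the runs were mixed, with 28 of 53 (52.8%) below and 11 (20.8%) above each MEFF array. Over the whole array 27.4% of windows lay below and 30.9% above. The runs were set on this contrast, so these counts only describe them.

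**Figure D1:**
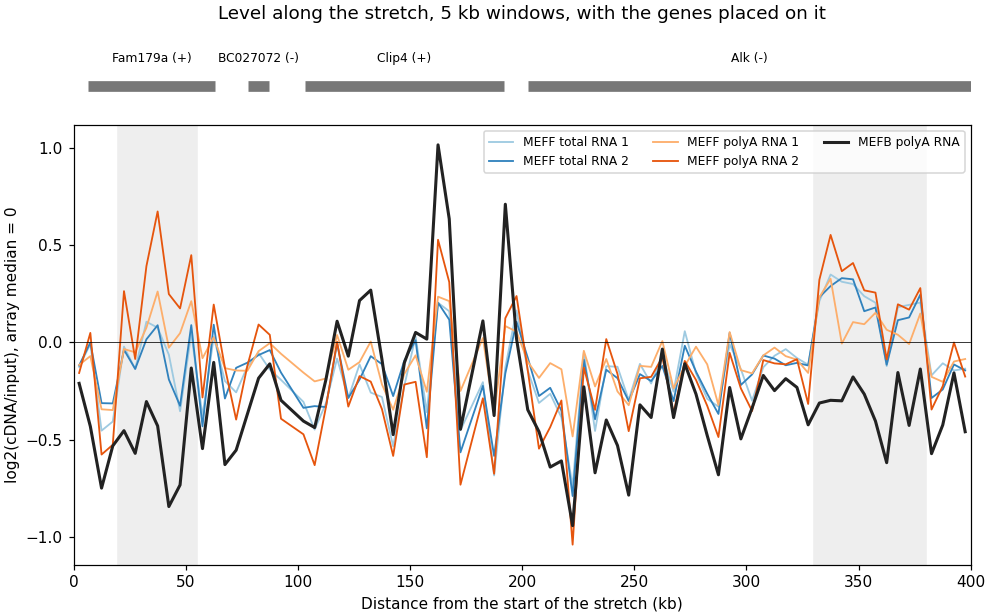
Mean log2(cDNA/input) in 5 kb windows (vertical axis, array median at 0) against the distance in kb from the start of the stretch, 1 line per array, with the placed genes as bars above and the Fam179a and Alk runs shaded. The MEFB line lies under all 4 MEFF lines across both shaded runs and above them at the peaks over Clip4, where it reaches 1.02.

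In the Fam179a run, chr17:72036224-72070817 in NCBIM37, the mean level was -0.05 and -0.07 for total and 0.07 and 0.30 for polyA RNA of MEFF, against -0.50 for MEFB. All 4 MEFF values lay above the MEFB value, and the polyA arrays lay above the total arrays. The median window of the run stood at percentiles 59.3 and 56.5 of all windows on the total arrays, 69.8 and 79.5 on the polyA arrays and 13.24 on the MEFB array. MEFB minus MEFF polyA was -0.68, with an SD of 0.16 between the 2 MEFF polyA arrays and no replicate of MEFB. With normexp background correction the difference was -1.27. The windows with the lowest differences in the stretch were here: -0.95 at 70140000, -0.90 at 70135000 and -0.84 at 70145000.

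The exons of Fam179a read above the array median in MEFF polyA RNA and below it in MEFB. Its 25 exon probes averaged 0.0007 and 0.04 for total and 0.25 and 0.98 for polyA RNA of MEFF, against -0.36 for MEFB. MEFB was the lowest array, and the 2 MEFF polyA arrays differed from each other by more than the first of them differed from the total arrays. MEFB minus MEFF polyA was -0.98, with an SD of 0.52 between the MEFF polyA arrays. Against MEFF polyA array 1 alone it was -0.61, against array 2 alone -1.35, and with normexp correction -1.83. MEFB lay below each MEFF array in 19 of the 25 probes (76.0%, where 26.0% of all probes did) and above each in none. Of 22 merged exons, 16 had a probe, and in 13 of these the MEFB level was below every MEFF array. Most exons had 1 or 2 probes.

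The exons that stood out most lie in the middle and at the 3′ end of Fam179a. At exon 10 (chr17:72047173-72047336, 1 probe) the levels were 0.63 and 0.32 for total and 0.71 and 2.09 for polyA RNA of MEFF, against -0.25 for MEFB. At exon 18 (chr17:72064018-72064112, 1 probe) they were -0.86 and -0.76, 0.37 and 0.48, and -1.36, so here both MEFF polyA arrays were close to each other. At the last exon, 22 (chr17:72078528-72079009, 2 probes), they were 0.10 and 0.36, 0.85 and 1.61, and -0.18. These exons were picked after their values were seen. A level above 1 was reached in 8 exons on MEFF polyA array 2 and in none on the other 4 arrays. That array also had the widest spread of window levels over the chromosome (SD 0.63, against 0.35 to 0.37 on the other MEFF arrays and 0.57 on the MEFB array) and the dimmest cDNA channel. The part of that wider scale in the Fam179a levels was not tested, and with all arrays brought to one distribution by quantile normalization the MEFB difference over the exon probes was -0.82.

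The introns of Fam179a were lower in MEFB too. Their 332 probes averaged -0.17 on both total arrays and -0.08 and -0.03 on both polyA arrays of MEFF, against -0.51 for MEFB. MEFB minus MEFF polyA was -0.46 there. In 198 of the 332 probes (59.6%, where 26.0% of all probes did so) MEFB lay below each MEFF array. The 8 probes over Gm15641, where it overlaps Fam179a on the opposite strand, read 0.44 and 0.41 for total and 0.77 and 1.36 for polyA RNA of MEFF, against -0.07 for MEFB. Reads of the 2 genes cannot be separated there.

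The input channel moved as well in the Fam179a run. Centred on the array median, the log2 input level was 0.22 and 0.24 for total and 0.13 and 0.14 for polyA RNA of MEFF, against 0.31 for MEFB, above all 4. Since the input is the denominator, the difference was smaller in the cDNA channel alone. Over the run the cDNA levels were 0.21 on both total arrays and 0.23 and 0.58 on both polyA arrays of MEFF, against -0.04 for MEFB, a difference from MEFF polyA of -0.45 over the probes of the run, or -0.44 as a mean of its windows. MEFB was still the lowest array. In the 4 windows before the run, the difference of -0.22 was mostly in the input, which was 0.16 higher in MEFB than in MEFF polyA, while the cDNA differed by -0.04.

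**Figure D2:**
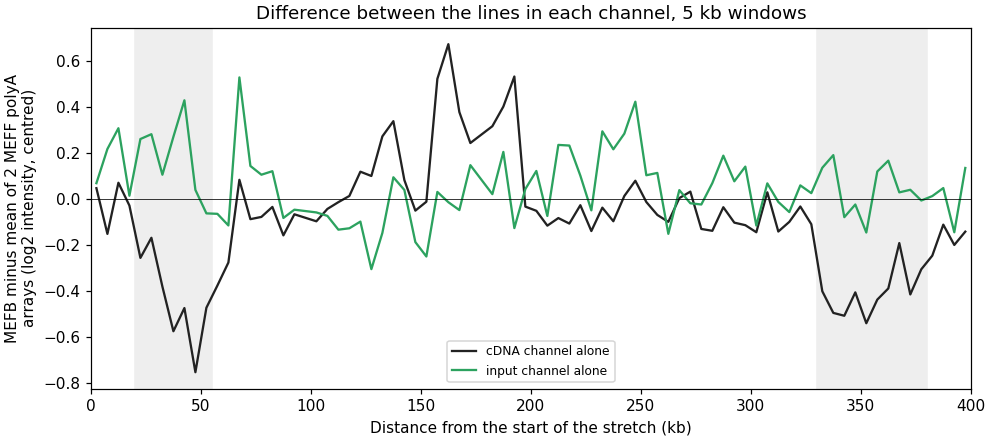
MEFB minus the mean of the 2 MEFF polyA arrays (vertical axis, log2 intensity of each channel centred on the array median) in 5 kb windows, against the distance in kb from the start of the stretch, with the cDNA and input channels as separate lines and both runs shaded. The cDNA line falls below 0 across both runs, averaging -0.44 in the Fam179a run and -0.41 in the Alk run, and peaks over Clip4. Over the probes of these runs the input difference averages 0.18 and 0.04.

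BC027072 showed little. Its 41 exon probes averaged 0.01 and 0.04 for total and 0.003 and 0.12 for polyA RNA of MEFF, against -0.21 for MEFB. The 24 intron probes lay close by, between -0.15 and 0.01 on the MEFF arrays and at -0.32 on the MEFB array. Exons and introns of this gene thus had the same mean difference between the lines, -0.27 in each. Between its 2 exons it varied, at -0.45 in exon 2 (10 probes) and -0.21 in exon 1 (31 probes). MEFB lay below each MEFF array in 24 of the 41 exon probes (58.5%, where 26.0% of all probes did). It lay above each in 10 (24.4%, where 27.9% of all probes did).

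Clip4, which lies between the runs, went the other way. Its 32 exon probes averaged 0.01 and -0.005 for total and 0.31 and 0.53 for polyA RNA of MEFF, against 2.39 for MEFB. The MEFB value was far above the range of the 4 MEFF arrays. MEFB minus MEFF polyA was 1.97, with an SD of 0.15 between the MEFF polyA arrays. MEFB lay above each MEFF array in 30 of 32 exon probes (93.8%, where 27.9% of all probes did) and below each in none. With quantile normalization the difference was 1.42. Exons of both neighbours also read higher in MEFB than in MEFF polyA RNA, by 1.28 in Wdr43 and 0.76 in Ypel5. The MEFB array had a wider spread of window levels (SD 0.57) than the MEFF arrays other than polyA array 2. The part of that wider scale in these differences was not tested. The contrast is the one the stretch was chosen on, and Clip4 lies inside the interval without having been named in the choice.

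The introns of Clip4 differed less on average. The 420 intron probes of Clip4 averaged -0.25 and -0.20 for total and -0.11 and -0.30 for polyA RNA of MEFF, against -0.09 for MEFB, a difference between MEFB and MEFF polyA of 0.12. MEFB lay above each MEFF array in 162 of the 420 probes (38.6%, where 27.9% of all probes did). It lay below each in 94 (22.4%, where 26.0% of all probes did). Some intron bins were as bright in MEFB as those with exons: the 1 kb bin at 70263000, all intron by the placing, read 1.25 in MEFB and -0.008 to 0.59 on the MEFF arrays. Its neighbour at 70262000, named after its values were seen, read 1.13 in MEFB and 0.16 to 0.37 on the MEFF arrays. The window levels in MEFB were highest at 70260000, with 0.20 and 0.20 for total and 0.24 and 0.53 for polyA RNA of MEFF, against 1.02 for MEFB. At 70290000, over the last exon, they were -0.13 and -0.16, 0.08 and 0.12, and 0.71. MEFB was the highest array in both. The differences from MEFF polyA there, 0.63 and 0.61, were the highest of the stretch, and the next, at 70255000, 70265000 and 70230000, also lay in Clip4. The MEFB input lay inside the MEFF range at 70260000 and 70255000 and below all 4 MEFF arrays at 70290000, 70265000 and 70230000, which raises the ratio there. In the cDNA channel alone MEFB minus MEFF polyA was 0.67 at 70260000 and 0.53 at 70290000.

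**Figure D3:**
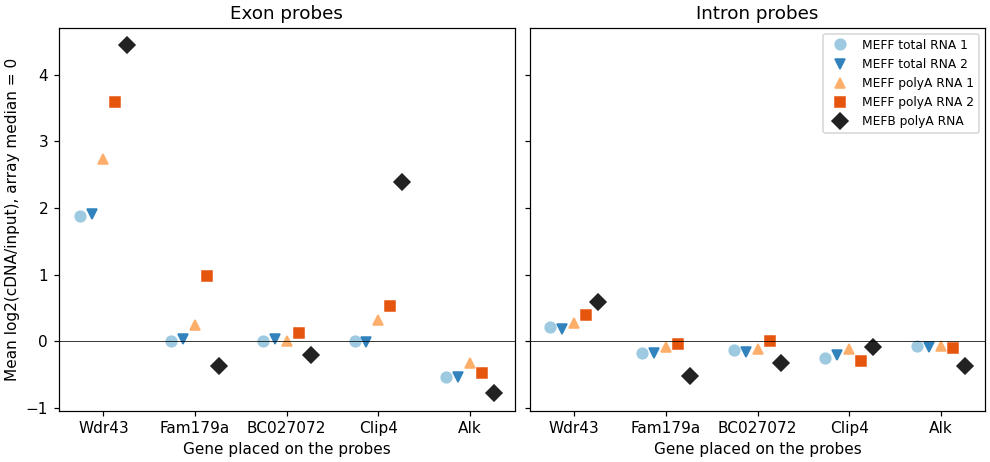
Mean log2(cDNA/input) (vertical axis, array median at 0) of the exon probes (left) and intron probes (right) of each placed gene, 1 point per array. MEFB stands at 2.39 over Clip4 exons, where the MEFF arrays lie between -0.005 and 0.53, and below the MEFF arrays over Fam179a, BC027072 and Alk exons.

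Exon by exon, the higher signal in MEFB ran through nearly the whole of Clip4. Of its 17 merged exons, 14 had a probe. In 13 of these the MEFB level was above 1 and above every MEFF array. The exception was exon 1 (chr17:72119042-72119250, 1 probe), with -0.25 and -0.26 for total and -0.53 and -1.31 for polyA RNA of MEFF, against -0.72 for MEFB, inside the MEFF range. The highest value was at exon 11 (chr17:72177032-72177121, 1 probe), with 0.69 and 0.85, 1.28 and 2.10, and 4.86.

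Within MEFF, exons 3 to 8 of Clip4 read alike in total and polyA RNA, while exons 11 to 17 read higher in polyA RNA; this split was made after the values were seen. Over the 8 probes of exons 3 to 8 the levels were -0.08 and 0.07 for total and -0.01 and 0.12 for polyA RNA of MEFF, against 2.57 for MEFB. Over the 21 probes of exons 11 to 17 they were 0.18 and 0.20, 0.61 and 0.96, and 2.45. The MEFF arrays overlapped in the 5′ exons, and in the 3′ exons both polyA arrays lay above both total arrays. MEFF total minus MEFF polyA was -0.06 over exons 3 to 8 and -0.59 over exons 11 to 17, and MEFB minus MEFF polyA was 2.52 and 1.67. No test of the difference between these exon groups was made. Probes differ in their own brightness, so differences between arrays are better grounded than levels between exons. The 3 listed starts printed above do not settle which start either line used, because exon 1 had a single probe and exon 2 none.

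**Figure D4:**
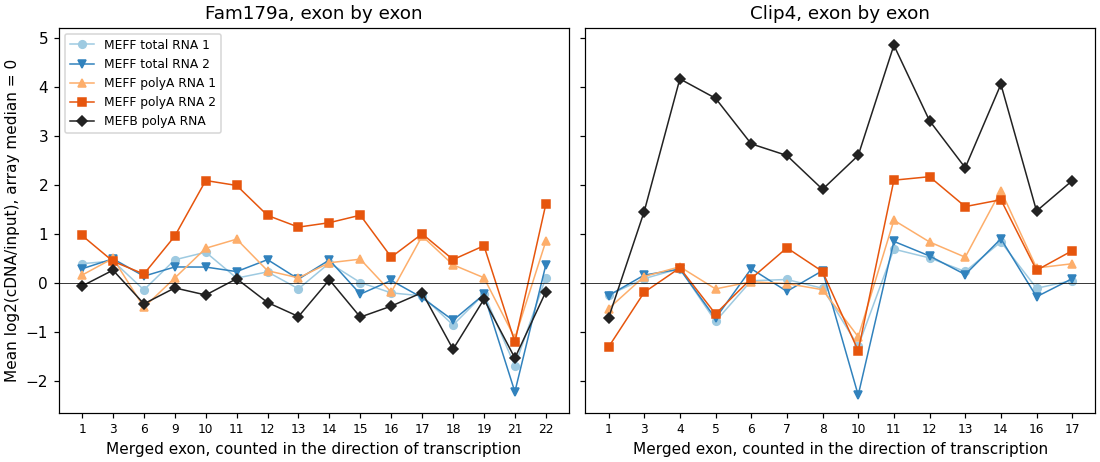
Mean log2(cDNA/input) (vertical axis, array median at 0) of each merged exon with a probe, counted in the direction of transcription, for Fam179a (left) and Clip4 (right), 1 line per array. MEFB reaches 4.86 at Clip4 exon 11 and lies at -0.72 in exon 1, while on the left only MEFF polyA array 2 exceeds 1, in 8 Fam179a exons.

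A short region past the 3′ end of Clip4, outside any placed gene, was also bright. The 1 kb bin at 70295000 (5 probes) read 0.63 and 0.50 for total and 0.32 and 0.74 for polyA RNA of MEFF, against 0.90 for MEFB. It was among the 5 brightest bins of the stretch in MEFF total RNA, and MEFB lay above each MEFF array. The 5 brightest bins in MEFB all lay in Clip4.

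The Alk exons in the stretch averaged below the typical probe on every array, and exons beyond the stretch are not judged here. Of the 29 merged exons of Alk, 19 lay in the stretch with a probe, and none of these had a level above 1 on any array. Some single exons read above 0 in MEFF, up to 0.58 at exon 15 (1 probe) on MEFF polyA array 1. The 31 exon probes averaged -0.54 on both total arrays and -0.32 and -0.47 on both polyA arrays of MEFF, against -0.78 for MEFB. MEFB minus MEFF polyA was -0.38 over these exon probes, so the exons read lower in MEFB too. MEFB lay below each MEFF array in 18 of the 31 (58.1%, where 26.0% of all probes did). It lay above each in 1 (3.2%, where 27.9% of all probes did). By mean level in MEFF, though, the name Alk in the choice of the interval is borne by an intron and not by these exons.

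That intron lies between exons 5 and 6 (chr17:72341531-72401079 in NCBIM37, 59.55 kb), and the Alk run filled most of it, at chr17:72345230-72395172. In the run the mean window level was 0.21 and 0.19 for total and 0.11 and 0.27 for polyA RNA of MEFF, against -0.31 for MEFB. The 4 MEFF arrays overlapped between the RNA types, and MEFB lay below all of them. MEFB minus MEFF polyA was -0.50, with an SD of 0.11 between the MEFF polyA arrays, and -1.08 with normexp correction. The median window stood at percentiles 76.3 to 82.3 on the MEFF arrays and 27.0 on the MEFB array. The largest difference was at 70435000, with 0.35 and 0.29, 0.33 and 0.55, and -0.30, a difference of -0.74.

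Within Alk, the level in MEFF differed between the run and the other introns. The 316 probes inside the run averaged 0.20 and 0.19, 0.11 and 0.27, and -0.31. The 63 probes of the same intron outside the run averaged -0.04 and -0.14, -0.14 and -0.20, and -0.43. The 793 probes of other Alk introns in the stretch averaged -0.18 and -0.19, -0.13 and -0.24, and -0.39, and the 3034 probes of Alk introns beyond the stretch -0.25 and -0.26, -0.16 and -0.33, and -0.33. MEFB inside the run was therefore near its own level in the other Alk introns, while all 4 MEFF arrays were above theirs. The run's borders were set on the contrast between the lines, so the difference in level between the inside and the outside in MEFB and MEFF polyA is a description.

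The input did not move with the Alk run: its log2 level was 0.10 and 0.12 for total and 0.09 and 0.06 for polyA RNA of MEFF, against 0.11 for MEFB, inside the MEFF range. In the cDNA channel alone the levels were 0.35 and 0.36, 0.24 and 0.48, and -0.06, and the difference from MEFF polyA was -0.41. The 3 Alk bins among the 5 brightest 1 kb bins in MEFF total RNA lay in the run, at 70441000, 70432000 and 70454000, with up to 0.70 in MEFF total RNA and 0.23 at most in MEFB.

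Across the 78 windows, the MEFF arrays followed each other closely, with Pearson correlations between 0.81 and 0.94 over windows of one chromosome stretch, which share the array design, and between 0.88 and 0.97 over all windows. MEFB followed the MEFF arrays less closely, with correlations between 0.38 and 0.49, where over all windows they were between 0.83 and 0.88. The stretch was chosen where MEFB departs from MEFF, so these lower MEFB correlations are built into the choice and support nothing.

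The comparison of total with polyA RNA within MEFF asks where RNA was depleted or enriched by selection for a polyA tail. It shares the MEFF polyA arrays with the contrast that chose the stretch and its runs, so it is not independent of that choice, and windows chosen for a high MEFF polyA level lean to total below polyA. No window was called: limma with Benjamini-Hochberg adjustment over all windows called 0 of the 78 (0.0% of 15383 windows called on the array). At an unadjusted p under 0.05 it found 2 of 78, against 1189 of 15383 (7.73%). The lowest limma adjusted p in the stretch was 0.572, shared by 70290000 in Clip4 (difference -0.25, SE 0.08) and 70145000 in Fam179a. At 70145000 total RNA read -0.35 and -0.33 and polyA RNA 0.05 and 0.17, a difference of -0.45 (SE 0.09, n = 2 and 2, limma). The total and polyA arrays did not overlap in that window. With quantile normalization, limma called this window and the one at 70135000 as lower in total RNA (adjusted p = 0.0085 and 0.043; 3.51% of all windows were called lower). A 2 against 2 exact permutation test of a single value cannot give less than 0.333. In the Fam179a run the mean MEFF total minus MEFF polyA difference was -0.36 without MEFF polyA array 1. Without MEFF polyA array 2 it was -0.13. Calls from these fits depended on which polyA array was kept. They are not given, because the lone polyA array left is then assumed to vary like the total RNA arrays.

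Both total RNA arrays lay below both polyA arrays in 19 of the 78 windows (24.4%, where 20.9% of all windows did) and above both in 4 (5.13%, against 14.2%). The share below is near the background. The 3 windows with the highest MEFF total minus MEFF polyA differences were 70250000 (0.155, 8 probes), 70440000 (0.141) and 70370000 (0.128). Both total arrays lay above both polyA arrays at 70250000 and 70370000, and none of these windows was called. In the Fam179a run 5 of 7 windows had total below polyA, with a mean difference of -0.25 that draws on the polyA values used to set the run, and in the Alk run 1 of 10, with a mean difference of 0.004. Over exon probes, total RNA lay below polyA RNA in 15 of 25 of Fam179a (60.0%) and 18 of 32 of Clip4 (56.3%), where 22.1% of all probes did so. Among exon probes of the neighbours the share was higher, 17 of 21 in Wdr43 (81.0%) and 16 of 20 in Ypel5 (80.0%). The mean differences in Fam179a and Clip4 were -0.60 and -0.42. For comparison, the exon probes of Wdr43, next to the stretch, read 1.88 and 1.91 for total and 2.73 and 3.59 for polyA RNA of MEFF, against 4.44 for MEFB. The file headers number the images of the total and polyA arrays of MEFF in separate ranges, so a difference between slide lots, if there was one, and RNA type cannot be told apart.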

How the data were processed

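Levels of RNA along chromosome 17 were measured on 5 tiling arrays in 3 groups. Per the file headers, NimbleScan 2.2.34 wrote the deposited probe intensity for both channels, with no normalization seen in the values; the array maker labelled and hybridised the samples, per the labels' protocols. The log2 ratio of cDNA to input intensity was taken for every probe, centred on the array median and averaged over 5 kb windows with at least 8 probes, without loess or quantile steps, since cDNA against genomic DNA is not balanced around 0. Limma 3.58.1 in R 4.3.3 fitted 3 group means on 5 arrays (2 residual degrees of freedom), with Benjamini-Hochberg adjustment over all windows and a threshold of 0.05. The fit was also run on simulated data. The change set there was far larger than any window difference in the stretch, so it cannot show whether smaller ones would be found. Arrays limit the precision, and 81 probes at most per channel were at the scanner limit of 65535.

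The windows named were the 5 with the highest level in each group, the 5 lowest and 5 highest MEFB differences, the 3 lowest and 3 highest total RNA differences, and the 5 brightest 1 kb bins per group (at least 4 probes); those that carry a pattern are given. Genes named were all those placed on the stretch and its neighbours. Members and lists were chosen with earlier results of these data known.

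Placing by the input signal, the method planned, put 0 of 16 blocks of 25 kb within 1000 bp of the final path. Probes were instead placed on NCBIM37 by the rarity of 15-mers at the probe positions, a step added after seeing the data, with a fine offset of -25 bp from the correlation of input with base composition. Blocks scanned separately by this rarity fell within 1000 bp of the path in 9 of 16 cases. The correlation of input with GC content was 0.21 when placed and 0.07 at the file positions. The offset was picked to give the highest such correlation over the stretch and its surroundings, with no such search at the file positions. These values are therefore not a separate check of the placing. Exons of the protein-coding transcripts of each gene were merged, and probes overlapping them by at least 25 bases counted as exon probes. Probes that touched an exon by fewer bases, or only an exon of another transcript type, counted as neither exon nor intron. Alternatives are given in the closing section.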

Additional observations from a re-analysis of the deposited data

How the results depend on the processing

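Of 164 values recomputed under other settings, 138 stayed within the spread between arrays (or, for counts, within 1.5 times), and 26 moved. That spread is the SD of 2 arrays, and leaving out an array cannot move a difference beyond it. Such values could only stay, so their part of the 138 supports nothing. The sign changed in 15 of the 164, over 4 results whose reported value was itself within the spread: MEFB minus MEFF polyA between the runs (0.02 in the cDNA channel alone) and MEFF total minus polyA between the runs, in the Alk run and after it. With normexp background correction, MEFB minus MEFF polyA was -1.27 in the Fam179a run, -1.08 in the Alk run, 2.38 over Clip4 exons and -1.83 over Fam179a exons, and MEFF total minus MEFF polyA was 0.11 before the Fam179a run, 0.19 in the Alk run and -0.63 over Clip4 exons. With loess, the MEFB difference over Clip4 exons was 1.71, and MEFF total minus polyA was -0.20 over Clip4 exons and 0.0638 after the Alk run. With quantile normalization the Clip4 exons differed by 1.42 and 2 windows were called between MEFF total and polyA RNA. MEFB minus MEFF polyA after the Alk run moved under 6 of 10 settings and ranged from -0.47 with normexp to -0.17 with quantile normalization; before the Fam179a run it ranged from -0.30 with dim probes removed to -0.01 in the cDNA channel alone. In the cDNA channel alone, the Fam179a run differed by -0.44 as a mean of windows and MEFF total minus polyA after the Alk run was 0.0379. The cause of these shifts was not tested. The exon values were recomputed by choices made after seeing the data.

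Leaving out 1 array at a time, MEFB minus MEFF polyA ranged from -0.80 to -0.56 in the Fam179a run, from -0.58 to -0.42 in the Alk run, from 1.86 to 2.08 over Clip4 exons and from -1.35 to -0.61 over Fam179a exons. MEFF total minus polyA ranged from 0.002 to 0.09 before the Fam179a run, from -0.36 to -0.13 in it, from -0.08 to 0.04 between the runs, from -0.07 to 0.08 in the Alk run, from -0.03 to 0.02 after it, from -0.53 to -0.31 over Clip4 exons and from -0.96 to -0.23 over Fam179a exons; called windows ranged from 0 to 18. The MEFB array has no replicate, so its own spread is unknown. No paired analysis was possible because the labels carry no replicate number that groups could share.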
